A study of Mus musculus with 6 samples.

Results

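The MHC class I antigen presentation genes described here are H2-K1, H2-D1, H2-Q4, B2m, Tap1, Tap2, Tapbp, Psmb8, Psmb9 and Nlrc5, chosen by gene symbol. Each symbol stood on 1 row, so they are 10 of the 31815 gene rows of the deposited count table, and all 10 were among the 15462 genes tested. Their mRNA was measured in sorted mouse kidney cells (cortex with outer medulla), 6 days after ischemia reperfusion injury of both kidneys, in which the renal blood supply is stopped and then restored. The 3 libraries of tdT+GFP+ cells and the 3 libraries of tdT-GFP+ cells came, per the labels, from kidneys 1, 2 and 3, each of which gave 1 library of either kind. Both groups came from male mice of 9 to 12 weeks with the genotype Axin2CreERT2/+:R26RtdT/+:Acta2-GFP that had received tamoxifen on days 2 and 4 after the injury. The red label (tdT) marks cells in which the Axin2 gene, a Wnt target, was active enough to drive the tamoxifen-dependent Cre around those days, and the green label (GFP) follows Acta2, which encodes smooth muscle actin. All 6 libraries therefore carry the injury, the tamoxifen, the Cre allele and the GFP gate, and there is no uninjured group among them.

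MHC class I molecules display short peptides from a cell's own proteins to CD8 T cells and natural killer cells on nearly all nucleated cells. The peptides are cut by the proteasome, carried into the endoplasmic reticulum by the TAP transporter, and loaded onto a heavy chain paired with beta-2-microglobulin with the help of tapasin. Interferon gamma raises the whole set through IRF1 and the transactivator NLRC5, among others, and in kidney it is known to raise class I molecules on tubular and endothelial cells.

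The 10 genes stood lower in tdT+GFP+ cells than in tdT-GFP+ cells, by a median of 0.702-fold (range 0.600- to 0.812-fold), in kidneys 1, 2 and 3 alike for 9 of them. None passed the adjusted threshold of 0.05 in the edgeR test across all genes, and neither did any other gene, so these are directions and sizes, not calls. The closest genes of the same pathway divided: other class I heavy chains had values on the same side, while genes of peptide supply and loading and of the constitutive proteasome had values on both sides of 0. Endothelial markers were lower in tdT+GFP+ cells by a wider margin, and their values are given beside the class I genes below.

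Of the 10 genes, 8 lie in the major histocompatibility complex on chromosome 17 (coordinates here are GRCm38, GENCODE M21), in a stretch from 33915899 to 35385290, and all 10 are annotated as protein coding. From the left, these are Tapbp (33915899 to 33929292, plus strand), H2-K1 (33996017 to 34000347, minus), Psmb9 (34181987 to 34187764, minus), Tap1 (34187553 to 34197225, plus), Psmb8 (34197721 to 34201454, plus), Tap2 (34203527 to 34216321, plus), H2-D1 (35262730 to 35267499, plus) and H2-Q4 (35379617 to 35385290, plus). B2m lies on chromosome 2 (122147686 to 122153083, plus) and Nlrc5 on chromosome 8 (94434356 to 94527272, plus). Psmb9, Tap1, Psmb8 and Tap2 lie next to each other within 34335 bases. Psmb9 and Tap1 run in opposite directions from 1 shared promoter region, and their annotated genes overlap by 212 bases, where reads of either gene cannot be told apart if the counting did not use strand.

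Promoter windows are shown for the heavy chains, for B2m and for the start shared by Tap1 and Psmb9. The windows of Tapbp and Psmb8, whose fold changes lay on the same side as those of the genes shown, are not printed. Each window runs from 250 bases before to 50 bases after a RefSeq start (build GRCm38.p6) and is written 5′ to 3′ along the gene. Capitals mark matches to 1 of 6 searched motifs: GAAANNGAA and the mirrored GAANNGAAA (interferon-response type, which can overlap each other), TTCNNNGAA (palindromic), GGGNNTTCC (NF-kB type), TGACGC (an X2-box type core) and CCAAT (bound by NF-Y). Both strands were searched, so CCAAT also appears as ATTGG and GAANNGAAA as TTTCACTTC.
H2-K1 (chr17:34000298-34000597, minus strand): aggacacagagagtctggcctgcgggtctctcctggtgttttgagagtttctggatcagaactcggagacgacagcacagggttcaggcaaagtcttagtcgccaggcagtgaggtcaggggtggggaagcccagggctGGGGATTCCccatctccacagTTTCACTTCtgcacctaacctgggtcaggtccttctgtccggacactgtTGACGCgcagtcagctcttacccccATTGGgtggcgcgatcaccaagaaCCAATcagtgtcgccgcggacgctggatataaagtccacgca
H2-D1 (chr17:35262844-35263143, plus strand): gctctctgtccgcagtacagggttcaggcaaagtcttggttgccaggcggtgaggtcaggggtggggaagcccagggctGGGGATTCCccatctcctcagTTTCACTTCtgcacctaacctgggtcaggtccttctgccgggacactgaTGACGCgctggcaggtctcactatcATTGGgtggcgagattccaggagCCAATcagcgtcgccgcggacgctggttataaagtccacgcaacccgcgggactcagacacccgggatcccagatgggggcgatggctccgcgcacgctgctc
H2-Q4 (chr17:35379367-35379666, plus strand): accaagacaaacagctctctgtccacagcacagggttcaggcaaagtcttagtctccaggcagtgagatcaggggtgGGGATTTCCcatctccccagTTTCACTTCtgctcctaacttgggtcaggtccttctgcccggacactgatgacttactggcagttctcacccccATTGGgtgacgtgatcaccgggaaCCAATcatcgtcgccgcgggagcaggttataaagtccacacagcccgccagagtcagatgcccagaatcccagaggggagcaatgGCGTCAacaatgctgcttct
B2m (chr2:122147437-122147736, plus strand): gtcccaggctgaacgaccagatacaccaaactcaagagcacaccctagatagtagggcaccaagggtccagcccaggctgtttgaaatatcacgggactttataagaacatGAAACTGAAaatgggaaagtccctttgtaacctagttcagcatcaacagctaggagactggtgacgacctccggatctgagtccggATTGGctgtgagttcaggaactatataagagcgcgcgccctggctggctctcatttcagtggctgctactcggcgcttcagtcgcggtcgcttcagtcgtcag
Tap1 (chr17:34187306-34187605, plus strand): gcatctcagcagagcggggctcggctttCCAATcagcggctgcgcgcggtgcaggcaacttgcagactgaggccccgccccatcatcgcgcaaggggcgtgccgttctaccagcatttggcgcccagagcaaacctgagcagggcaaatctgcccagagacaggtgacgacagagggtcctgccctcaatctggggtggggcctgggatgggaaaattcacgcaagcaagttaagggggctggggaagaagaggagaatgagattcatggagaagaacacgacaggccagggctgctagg

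The windows of H2-K1, H2-D1 and H2-Q4 held the same arrangement, an NF-kB-type match followed by TTTCACTTC and then by 2 CCAAT-type matches. Counted from the start, with the last base before it as -1 and the first base after it as 1, GGGGATTCC lay at -111 to -103 in H2-K1 and at -171 to -163 in H2-D1, and GGGATTTCC lay at -173 to -165 in H2-Q4. H2-K1 has a second RefSeq start close by, whose window holds the same matches. TTTCACTTC lay at -90 to -82 in H2-K1, at -150 to -142 in H2-D1 and at -153 to -145 in H2-Q4. TGACGC lay at -41 to -36 in H2-K1 and at -101 to -96 in H2-D1, whereas in H2-Q4 its only match was on the other strand at 31 to 36. Local alignment gave 90.4% identity between the H2-K1 and H2-D1 windows over 228 aligned columns, 81.7% between H2-K1 and H2-Q4 over 229 and 79.1% between H2-D1 and H2-Q4 over 301.

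B2m, whose window aligned to those of the heavy chains with 61.2% to 64.5% identity over 103 to 111 columns, held GAAACTGAA at -139 to -131 and ATTGG at -53 to -49. The Tap1 window held CCAAT at -222 to -218, and 275 of its 300 bases are also in the window of Psmb9, which runs the other way and reads the same letters as ATTGG at -8 to -4. The RefSeq table held windows for 8 of the 10 genes. Among these, CCAAT was found in 7 genes, GGGNNTTCC, GAANNGAAA and TGACGC in 3 each, GAAANNGAA in 1 (B2m) and TTCNNNGAA in 1 (Psmb8). The 3 genes were H2-K1, H2-D1 and H2-Q4 each time, whose windows are alike, so they are not separate observations. GAANNGAAA was added after the promoters had been seen, so its count beside the share of all windows is no test. Of all 32851 windows in the table, 37.4% held CCAAT, 5.82% GGGNNTTCC, 7.52% GAANNGAAA, 7.40% TGACGC, 8.56% GAAANNGAA and 8.30% TTCNNNGAA. A match is a string of letters and was not tested as a binding site.

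Values below are normalised counts (CPM, counts scaled to library size), on library sizes scaled by the trimmed mean of M-values (TMM). A log2 fold change below 0 means lower in tdT+GFP+ cells, and its p comes from edgeR's quasi-likelihood test, adjusted by the Benjamini-Hochberg method over all genes tested. Values after ± are SD over 3 libraries. Total counts ran from 26919514 to 33029933 in tdT+GFP+ libraries and from 25697348 to 31337198 in tdT-GFP+ libraries, so that 3 counts amounted to 0.0915 to 0.114 CPM, far below every value of the 10 genes. In bulk RNA, fewer cells of a type and less RNA per cell cannot be told apart.

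H2-K1 and H2-D1 encode the classical heavy chains, which hold the peptide and are read by T cell receptors. H2-K1 (ENSMUSG00000061232.16) had 214, 239 and 251 CPM in tdT+GFP+ libraries 1, 2 and 3, against 291, 314 and 376 CPM in tdT-GFP+ libraries 1, 2 and 3. Every tdT+GFP+ library lay below every tdT-GFP+ library. The means were 235 ± 19.2 CPM in tdT+GFP+ cells, against 327 ± 44.1 CPM in tdT-GFP+ cells (each with its SD, n = 3), a log2 fold change of -0.48 (SE 0.12, 95% interval -0.77 to -0.19, edgeR adjusted p = 0.404). H2-D1 (ENSMUSG00000073411.12) had 245, 316 and 276 CPM in tdT+GFP+ libraries, against 355, 381 and 504 CPM in tdT-GFP+ libraries. The groups did not overlap here either, and replicate 3 of tdT-GFP+ cells stood highest. Its means were 279 ± 36.0 CPM in tdT+GFP+ cells, against 414 ± 79.8 CPM in tdT-GFP+ cells, with a log2 fold change of -0.57 (SE 0.16, edgeR adjusted p = 0.414).

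H2-Q4, a nonclassical heavy chain gene of the Q region, had 63.8, 63.9 and 88.4 CPM in tdT+GFP+ libraries, against 95.2, 139 and 126 CPM in tdT-GFP+ libraries. The lowest tdT-GFP+ library was close to the highest tdT+GFP+ library, without overlap. The log2 fold change was -0.73 (SE 0.19, edgeR adjusted p = 0.404), from 72.0 ± 14.2 CPM in tdT+GFP+ cells, against 119.8 ± 22.3 CPM in tdT-GFP+ cells. Heavy chain genes share stretches of sequence. In the GENCODE M21 transcripts, 9.63% of the 50-base stretches of H2-K1, 12.8% of those of H2-D1 and 21.8% of those of H2-Q4 also occurred in another gene, most often H2-Q10, H2-Q1 and H2-Q6, so the split of reads between them is uncertain. The sources used here do not name the mouse strain, on which the class I alleles depend.

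The sum of these 3 heavy chain genes does not depend on how reads were divided among the 3, but it still depends on the split with H2-Q10, H2-Q1 and H2-Q6. It came to 522, 619 and 615 CPM in tdT+GFP+ libraries and 740, 834 and 1006 CPM in tdT-GFP+ libraries. Again no library of either group reached into the range of the other. The means were 586 ± 55.0 CPM in tdT+GFP+ cells, against 859.9 ± 135 CPM in tdT-GFP+ cells, and the log2 fold change was -0.55 (SE 0.14, edgeR adjusted p = 0.405). DESeq2, whose counts of calls differ from edgeR's in these libraries, gave -0.55 with an adjusted p = 0.0218. The make-up of the sum overlapped between groups, with H2-K1 at 40.1% ± 1.34 of the heavy chain counts in tdT+GFP+ cells and 38.1% ± 1.02 in tdT-GFP+ cells. H2-Q4 made up 12.3% ± 2.02 in tdT+GFP+ cells and 14.0% ± 2.29 in tdT-GFP+ cells.

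B2m encodes beta-2-microglobulin, the light chain without which classical heavy chains do not reach the surface. It was the highest of the 10 per length and had 381, 479 and 473 CPM in tdT+GFP+ libraries, against 568, 543 and 659 CPM in tdT-GFP+ libraries. The groups did not overlap. The means were 444 ± 54.9 CPM in tdT+GFP+ cells, against 589.9 ± 60.9 CPM in tdT-GFP+ cells, with a log2 fold change of -0.41 (SE 0.13, edgeR adjusted p = 0.431). Per kilobase of exon, the ratio of H2-K1 to B2m overlapped between the groups (0.155 ± 0.00914 in tdT+GFP+ cells and 0.162 ± 0.0105 in tdT-GFP+ cells).

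Tap1 and Tap2 encode the subunits of the transporter that brings peptides into the endoplasmic reticulum. Tap1 had 25.7, 30.8 and 31.3 CPM in tdT+GFP+ libraries, against 38.3, 42.3 and 47.7 CPM in tdT-GFP+ libraries. The groups did not overlap. Tap1 had the smallest p of the 10, with a log2 fold change of -0.55 (SE 0.12, unadjusted p = 0.00264, edgeR adjusted p = 0.394) from 29.3 ± 3.09 CPM in tdT+GFP+ cells, against 42.8 ± 4.74 CPM in tdT-GFP+ cells. Tap2 had 38.6, 40.8 and 41.1 CPM in tdT+GFP+ libraries, against 46.4, 56.6 and 60.0 CPM in tdT-GFP+ libraries. The tdT+GFP+ libraries lay close together and the tdT-GFP+ libraries were more spread, all of them above. The log2 fold change of Tap2 was -0.44 (SE 0.11, edgeR adjusted p = 0.399), with means of 40.2 ± 1.39 CPM in tdT+GFP+ cells, against 54.3 ± 7.12 CPM in tdT-GFP+ cells.

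Tapbp encodes tapasin, which bridges the transporter and the empty heavy chain. It had 131, 157 and 149 CPM in tdT+GFP+ libraries, against 183, 156 and 200 CPM in tdT-GFP+ libraries. It was the only one of the 10 whose groups overlapped, since both libraries of kidney 2 held nearly the same level. The log2 fold change was -0.30 (SE 0.12, edgeR adjusted p = 0.451), with means of 146 ± 13.1 CPM in tdT+GFP+ cells, against 179.8 ± 22.3 CPM in tdT-GFP+ cells. It was -0.46 without both libraries of kidney 2 and -0.20 without both libraries of kidney 1.

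Psmb8 and Psmb9 encode catalytic subunits of the immunoproteasome, which take the places of the constitutive subunits encoded by Psmb5 and Psmb6. Psmb8 had 20.8, 21.9 and 22.8 CPM in tdT+GFP+ libraries, against 24.4, 34.3 and 31.4 CPM in tdT-GFP+ libraries. Replicate 1 of tdT-GFP+ cells stood only slightly above the tdT+GFP+ libraries. Its log2 fold change was -0.46 (SE 0.14, edgeR adjusted p = 0.414), with means of 21.8 ± 1.01 CPM in tdT+GFP+ cells, against 30.0 ± 5.11 CPM in tdT-GFP+ cells. Psmb9 had 5.49, 6.38 and 6.09 CPM in tdT+GFP+ libraries, against 7.54, 9.75 and 11.0 CPM in tdT-GFP+ libraries. All tdT+GFP+ libraries lay below. Its log2 fold change was -0.66 (SE 0.17, edgeR adjusted p = 0.409), with means of 5.99 ± 0.453 CPM in tdT+GFP+ cells, against 9.45 ± 1.78 CPM in tdT-GFP+ cells.

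Nlrc5 encodes the transactivator that is recruited to class I promoters. It had 4.12, 6.19 and 5.14 CPM in tdT+GFP+ libraries, against 6.81, 7.10 and 11.8 CPM in tdT-GFP+ libraries. Replicate 3 of tdT-GFP+ cells stood well above the others, and the remaining libraries of the groups came close without overlap. The log2 fold change was -0.74 (SE 0.27, edgeR adjusted p = 0.444), with means of 5.15 ± 1.03 CPM in tdT+GFP+ cells, against 8.58 ± 2.82 CPM in tdT-GFP+ cells. Leaving out replicate 3 of tdT-GFP+ cells gave -0.43, and leaving out kidney 3 altogether gave -0.43 as well.

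**Figure D1:**
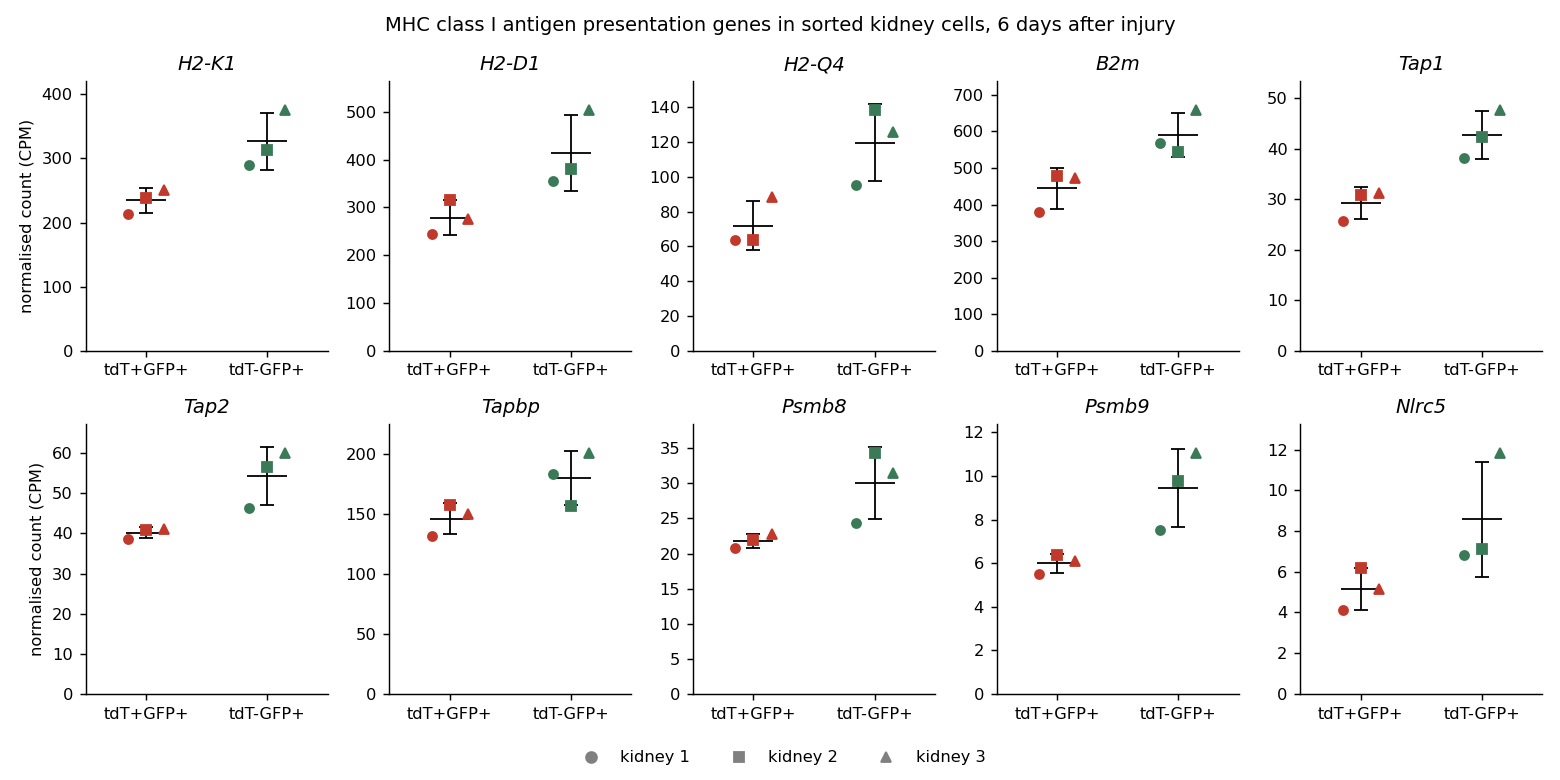
Normalised counts (CPM, linear axes from 0) of the 10 class I genes in each library, with tdT+GFP+ cells left of tdT-GFP+ cells; symbols mark the kidney, the long bar is the mean and the whiskers are 1 SD (n = 3). In 9 of the 10 panels every tdT+GFP+ point lies below every tdT-GFP+ point, and in the Tapbp panel both squares (kidney 2) are level.

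Over the 10 genes, log2 fold changes ran from -0.74 to -0.30 with a median of -0.51, beside a median of -0.0004 over all 15462 genes tested (quartiles -0.19 and 0.13). Of all genes tested, 11.4% had a value at or below the median of the 10. With edgeR, 0 of the 10 were called, as were 0% of all genes (adjusted p of the 10 from 0.394 to 0.451), while 10 of 10 had an unadjusted p under 0.05 and a lower value in tdT+GFP+ cells, where 6.97% of all genes tested did. That count was 5 without both libraries of kidney 3. In 9 of 10 genes all tdT+GFP+ libraries lay below all tdT-GFP+ libraries, as they did in 8.6% of all genes tested. DESeq2 called 3 of the 10 lower (H2-K1, adjusted p = 0.0380; H2-Q4, adjusted p = 0.0218; Tap1, adjusted p = 0.0196), where it called 1.86% of all genes. With the kidney as a block DESeq2 called the same 3, where it called 1.62% of all genes. Members of a pathway vary together, so these counts are not counts of independent events. The list was also chosen with earlier results of these data known, so its counts beside the shares of all genes are no test.

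Within kidneys as the labels number them, the median over the 10 genes of the log2 difference between tdT+GFP+ and tdT-GFP+ cells was -0.51 in kidney 1, -0.42 in kidney 2 and -0.56 in kidney 3. All 10 differences were negative in kidneys 1 and 3, and 9 were in kidney 2, where Tapbp stood at 0.01. The genes differed in which kidney gave the widest gap. H2-Q4 had -0.58, -1.12 and -0.51 in kidneys 1, 2 and 3, whereas H2-D1 had -0.54, -0.27 and -0.87 and Nlrc5 had -0.73, -0.20 and -1.20. H2-K1 (-0.44, -0.39 and -0.58) and Tap1 (-0.57, -0.45 and -0.61) were the most even. Within the groups, replicate 1 was the lowest tdT+GFP+ library for 10 of 10 genes and the lowest tdT-GFP+ library for 8, and replicate 3 was the highest tdT-GFP+ library for 8.

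**Figure D2:**
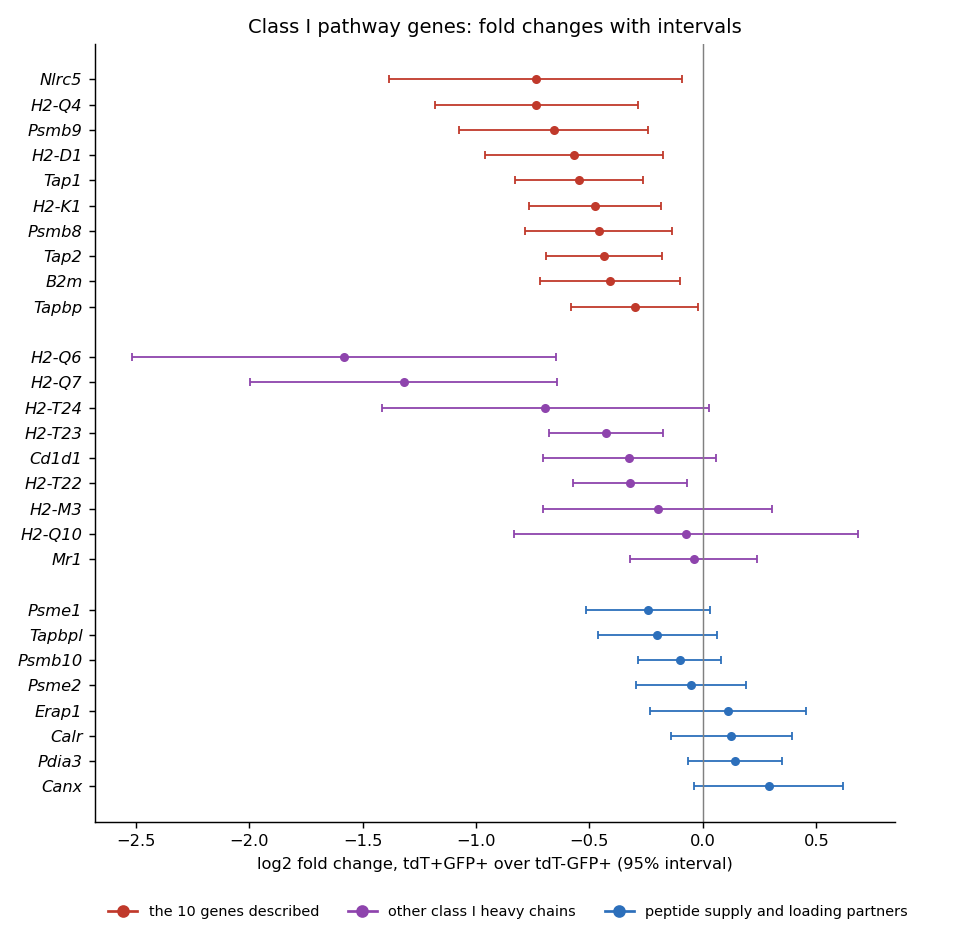
Log2 fold changes of tdT+GFP+ over tdT-GFP+ cells with 95% intervals from edgeR (x axis) for the 10 class I genes, 9 other class I heavy chain genes and 8 genes of peptide supply and loading; the vertical line marks no difference. All 10 intervals of the class I genes lie below 0 before adjustment, the other heavy chains extend to -1.58 for H2-Q6, and the 8 supply and loading genes lie on both sides of 0.

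Per kilobase of exon, the 10 genes kept 1 order of mean levels in both groups. B2m was highest at 516 ± 63.9 CPM per kilobase in tdT+GFP+ cells and 686 ± 70.8 in tdT-GFP+ cells. H2-D1 had 108 ± 14.0 CPM per kilobase in tdT+GFP+ cells and 160 ± 30.9 in tdT-GFP+ cells, and H2-K1 had 79.9 ± 6.53 in tdT+GFP+ cells and 111 ± 15.0 in tdT-GFP+ cells. Then came Tapbp, H2-Q4, Tap2, Psmb8 and Tap1, and at the low end Psmb9 with 1.64 ± 0.124 CPM per kilobase in tdT+GFP+ cells and 2.58 ± 0.485 in tdT-GFP+ cells, and Nlrc5 with 0.606 ± 0.122 in tdT+GFP+ cells and 1.01 ± 0.332 in tdT-GFP+ cells. In tdT+GFP+ cells the ranges of all neighbours in this order were separate. In tdT-GFP+ cells the ranges of Tapbp and H2-Q4 overlapped, and Tapbp was the higher in 2 of 3 libraries. The ranges of Psmb8 and Tap1 overlapped too, although Psmb8 was the higher within each of the 3 libraries.

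The immunoproteasome subunits were lower relative to the subunits they replace, for Psmb8 and Psmb9 but not clearly for Psmb10. The ratio of Psmb8 to Psmb5 counts per kilobase was 0.100, 0.108 and 0.107 in tdT+GFP+ libraries, against 0.111, 0.173 and 0.157 in tdT-GFP+ libraries, a mean log2 difference of -0.46. The ratio of Psmb9 to Psmb6 was 0.0368, 0.0419 and 0.0414 in tdT+GFP+ libraries, against 0.0520, 0.0620 and 0.0748 in tdT-GFP+ libraries, a mean log2 difference of -0.64. Neither of these pairs of groups overlapped. Psmb10, the remaining catalytic subunit of the immunoproteasome, gave a ratio to Psmb7 of 1.15, 1.31 and 1.23 in tdT+GFP+ libraries, against 1.26, 1.33 and 1.28 in tdT-GFP+ libraries. Those groups overlapped, with a mean log2 difference of -0.07. Psmb5 (log2 fold change 0.01), Psmb6 (-0.004) and Psmb7 (-0.03) themselves stood near 0. These ratios are descriptions and were given no test.

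**Figure D3:**
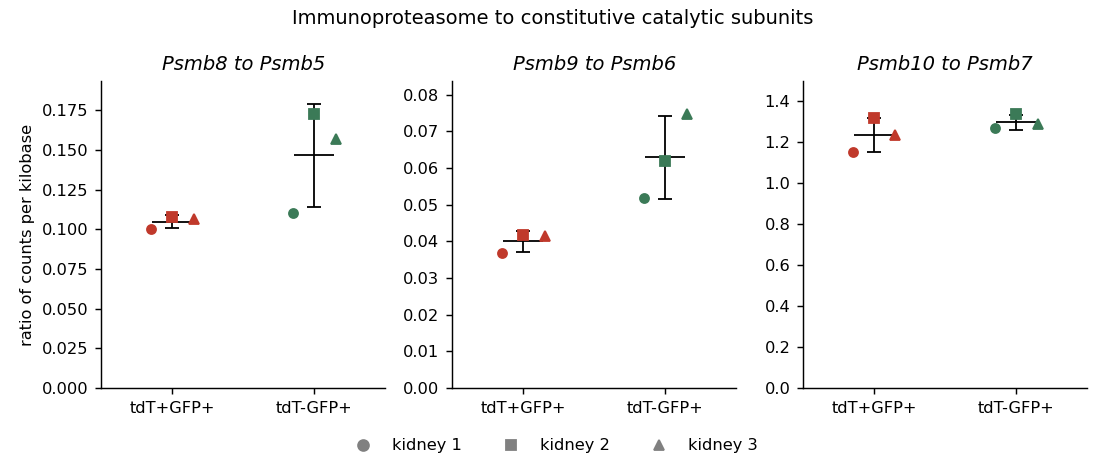
Ratio of counts per kilobase (y axes from 0) of each immunoproteasome subunit to the constitutive subunit it replaces, in tdT+GFP+ and tdT-GFP+ libraries; symbols mark the kidney, bars the mean and 1 SD (n = 3). The groups are apart for Psmb8 to Psmb5 and for Psmb9 to Psmb6, and they overlap for Psmb10 to Psmb7.

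Other class I heavy chain genes lay on the same side. Of 13 listed, 12 were in the table and 9 were tested. All 9 tested genes had negative log2 fold changes (median -0.32), as did 50.1% of all genes tested. Of the 9, 4 had a lower value with an unadjusted p under 0.05 in edgeR, as did 6.97% of all genes tested. Their values spread widely, from -1.58 for H2-Q6 to -0.04 for Mr1. In 4 of the 9 all tdT+GFP+ libraries lay below, as in 8.6% of all genes tested, and in the rest the groups overlapped. The 3 not tested, H2-Q1, H2-Q2 and H2-M2, were too low. The pair with the widest gaps, H2-Q6 and H2-Q7, encode Qa-2 type molecules. H2-Q7 had 7.51, 8.77 and 14.0 CPM in tdT+GFP+ libraries, against 18.8, 26.3 and 30.4 CPM in tdT-GFP+ libraries, with a log2 fold change of -1.32 (SE 0.28, edgeR adjusted p = 0.394, DESeq2 adjusted p = 0.00128). H2-Q6 had 5.68, 6.77 and 14.3 CPM in tdT+GFP+ libraries, against 18.9, 27.6 and 33.3 CPM in tdT-GFP+ libraries, with a log2 fold change of -1.58 (SE 0.39, edgeR adjusted p = 0.404, DESeq2 adjusted p = 0.00361). For both, no library of one group reached the range of the other, and replicate 3 was the highest library in each group. Of the 50-base stretches, 32.0% of those of H2-Q6 and 26.4% of those of H2-Q7 also occurred in another gene. The gene that shared most was H2-Q7 for H2-Q6 (13.9%) and H2-Q10 for H2-Q7 (14.0%), so the split of reads among these genes is uncertain.

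H2-T23, which encodes the Qa-1 molecule read by natural killer receptors, had 85.9 ± 8.86 CPM in tdT+GFP+ cells, against 116 ± 10.2 CPM in tdT-GFP+ cells (log2 fold change -0.43, SE 0.11, edgeR adjusted p = 0.399). H2-T22, a ligand of some gamma-delta T cells, had -0.32 (edgeR adjusted p = 0.438). The MHC class I-related genes that present other ligands were closer to 0 or more variable: Mr1, which presents vitamin metabolites, had a log2 fold change of -0.04 and Cd1d1, which presents lipids, had -0.32, both with overlapping groups.

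The genes that act beside the 10 in supplying and loading peptides had values on both sides of 0. Of 8 tested, 4 were positive and 4 negative (median 0.03), and 0 had an unadjusted p under 0.05 in edgeR. Psme1, a subunit of the proteasome activator PA28, had 62.3 ± 4.78 CPM in tdT+GFP+ cells, against 73.6 ± 9.66 CPM in tdT-GFP+ cells (log2 fold change -0.24, edgeR adjusted p = 0.487). Canx, the chaperone calnexin that holds new heavy chains, had 527 ± 52.1 CPM in tdT+GFP+ cells, against 431 ± 64.1 CPM in tdT-GFP+ cells (0.29, edgeR adjusted p = 0.487). Tapbpl, a tapasin-related editor of peptides, had -0.20, and Pdia3, the loading complex's disulfide isomerase, had 0.14. The 14 genes of the constitutive 20S proteasome had a median of 0.05 with 10 positive. Of these, Psmb4, Psma3 and Psma7 had positive values with an unadjusted p under 0.05, as did 3.71% of all genes tested, and in 6 of the 14 all tdT+GFP+ libraries lay above all tdT-GFP+ libraries, as in 7.23% of all genes.

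Regulators of class I transcription also had values on both sides of 0. Of 17 tested, 7 were positive and 10 negative (median -0.03). Irf1, an interferon-induced activator of class I genes, had 69.4, 59.9 and 113 CPM in tdT+GFP+ libraries, against 96.9, 219 and 142 CPM in tdT-GFP+ libraries. These groups overlapped, with a log2 fold change of -0.92 (SE 0.35, edgeR adjusted p = 0.451). Jak2, a kinase of the interferon gamma receptor, had 133 ± 10.1 CPM in tdT+GFP+ cells, against 103 ± 21.1 CPM in tdT-GFP+ cells (0.38, SE 0.15, edgeR adjusted p = 0.460). Rfx5, a subunit of the RFX factor that binds class I promoters together with NLRC5, had -0.18.

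**Figure D4:**
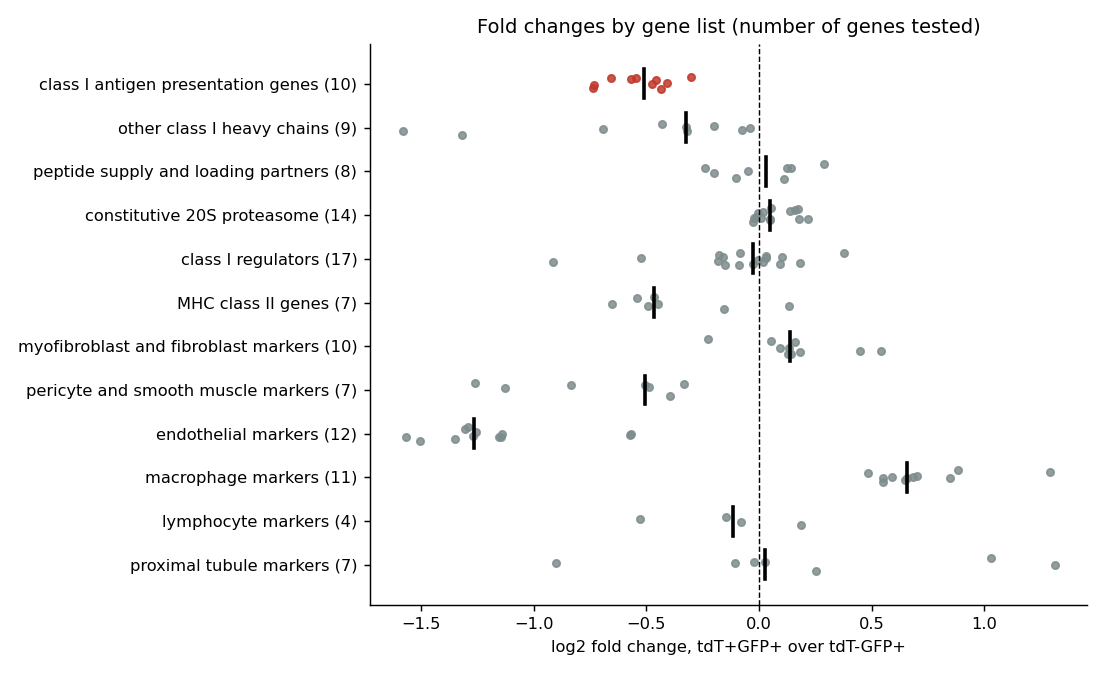
Log2 fold changes of tdT+GFP+ over tdT-GFP+ cells (x axis) for the tested genes of each list, 1 point a gene, with the list's median as a black bar and the median of all genes as a dashed line; points are spread vertically for legibility. The 10 class I genes (red) lie between -0.74 and -0.30, endothelial markers lie further down with a median of -1.26, macrophage markers lie above 0 with a median of 0.66, and the constitutive 20S proteasome lies close to 0.

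The gated cells carried the transcripts that their green label calls for in every library. Acta2 had 1580 ± 166 CPM in tdT+GFP+ cells, against 1158 ± 372 CPM in tdT-GFP+ cells (log2 fold change 0.45, edgeR adjusted p = 0.499), and the 10 myofibroblast and fibroblast markers summed to 57216 to 64676 CPM in tdT+GFP+ libraries and 44057 to 65904 CPM in tdT-GFP+ libraries. Axin2 had 48.9 ± 17.6 CPM in tdT+GFP+ cells, against 44.9 ± 18.5 CPM in tdT-GFP+ cells (0.12, edgeR adjusted p = 0.907), so its mRNA at the time of the sort did not separate the groups.

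Markers of endothelium, whose cells express class I molecules strongly, were detected in all libraries and were lower in tdT+GFP+ cells. All 12 had negative log2 fold changes (median -1.26), as did 50.1% of all genes tested. An unadjusted p under 0.05 in edgeR went with a lower value in 11 of the 12, as in 6.97% of all genes tested. DESeq2 called 10 of the 12 lower, where it called 1.86% of all genes. With the kidney as a block it called 7, where it called 1.62% of all genes. Tie1 had 48.5 ± 11.6 CPM in tdT+GFP+ cells, against 143 ± 37.0 CPM in tdT-GFP+ cells. In 9 of the 12 all tdT+GFP+ libraries lay below, as in 8.6% of all genes tested. The sum of the 12 was 657, 1019 and 864 CPM in tdT+GFP+ libraries, against 1772, 1469 and 2383 CPM in tdT-GFP+ libraries. The sum of the 10 class I genes was 1129, 1361 and 1344 CPM in tdT+GFP+ libraries, against 1614, 1683 and 2027 CPM in tdT-GFP+ libraries. Replicate 1 was the lowest tdT+GFP+ library and replicate 3 the highest tdT-GFP+ library in both sums. The lowest tdT-GFP+ library differed, replicate 2 for the endothelial sum and replicate 1 for the class I sum. Within kidneys 1, 2 and 3 the log2 difference of the endothelial sum was -1.43, -0.53 and -1.46, and that of the class I sum was -0.52, -0.31 and -0.59. The part of endothelial RNA in the class I difference was not tested.

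Markers of pericytes and smooth muscle, which can also carry Acta2-driven GFP, had 7 of 7 negative values, beside 50.1% of all genes tested. These ran from -1.26 to -0.33 (median -0.51). Of the 7 markers, 4 had a lower value with an unadjusted p under 0.05 in edgeR, beside 6.97% of all genes tested. In 2 of the 7 all tdT+GFP+ libraries lay below, beside 8.6% of all genes tested. DESeq2 called 1 of these markers lower, where it called 1.86% of all genes. The sum of the 7 ranged from 770 to 1042 CPM in tdT+GFP+ libraries and from 1058 to 1949 CPM in tdT-GFP+ libraries. Its within-kidney log2 differences were -1.0, -0.02 and -1.03. The part of mural cell RNA in the class I difference was not tested. Macrophage markers, from cells rich in class I and class II molecules, lay on the other side, with 11 of 11 positive values (median 0.66) and none with an unadjusted p under 0.05. Their sum was 1168, 1718 and 464 CPM in tdT+GFP+ libraries, against 603, 338 and 1021 CPM in tdT-GFP+ libraries, so the order of the groups in kidney 3 was opposite to that in kidneys 1 and 2.

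The 7 MHC class II genes, marks of professional antigen-presenting cells, summed to 185 to 360 CPM in tdT+GFP+ libraries and 271 to 606 CPM in tdT-GFP+ libraries, with 6 of 7 negative values (median -0.47) and overlapping groups throughout. Their within-kidney log2 differences were 0.11, 0.17 and -1.71. Lymphocyte markers summed to only 2.78 to 4.83 CPM in tdT+GFP+ libraries and 3.14 to 5.34 CPM in tdT-GFP+ libraries. Proximal tubule markers summed to 467 to 549 CPM in tdT+GFP+ libraries and 260.2 to 1208 CPM in tdT-GFP+ libraries. Aqp1 alone gave 1070 CPM of the highest sum, that of replicate 2 of tdT-GFP+ cells. Within kidney 2 the log2 difference was -4.24 for Aqp1 but positive for every other tubule marker (0.92 to 3.02). The sum therefore does not stand for the list there. Of the 7 tubule markers, 4 had positive and 3 negative log2 fold changes (median 0.02), none with an unadjusted p under 0.05 in edgeR. The lymphocyte markers Cd3d (T cells) and Ms4a1 (B cells) were at 0 in 1 library each. No marker of these lists was at 0 in all 6 libraries, and the part of these cell types in the class I values was not tested.

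**Figure D5:**
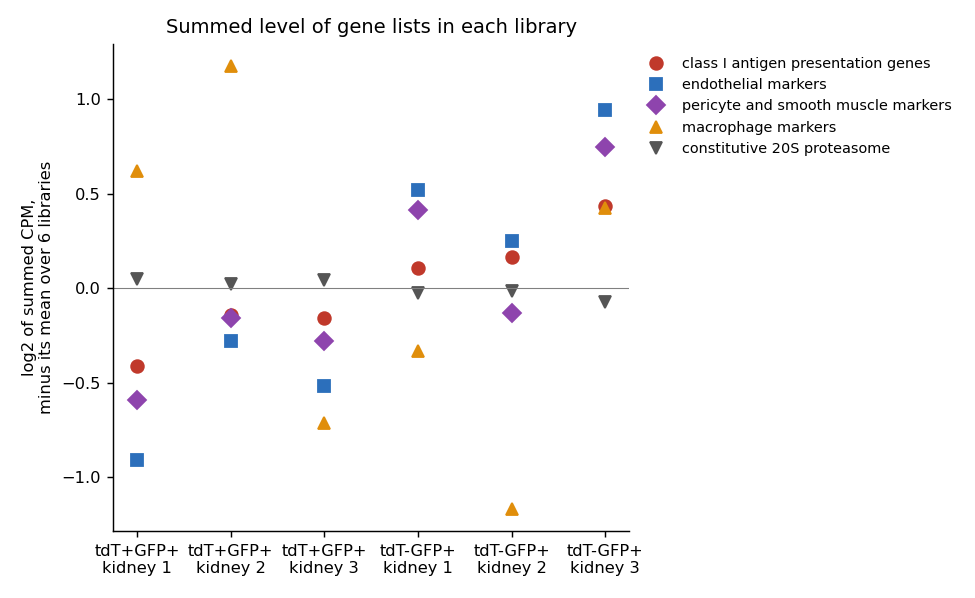
Log2 of the summed CPM of 5 gene lists in each library, each centred on its mean over the 6 libraries (y axis), with tdT+GFP+ libraries left of tdT-GFP+ libraries. The class I genes (circles) and the endothelial markers (squares) lie below 0 in all tdT+GFP+ libraries and above 0 in all tdT-GFP+ libraries, the macrophage markers (triangles) do not follow the groups, and the constitutive proteasome varies little.

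The genes whose levels across the 6 libraries were most like the mean of the 10 were Abi3, Fam171a1, Parp14, Fam102a and Unc45b, among 13101 compared. Likeness was the root mean square distance between log2 CPM values centred on their mean over the libraries, which is small only where the size of the difference also matches. It was 0.0394 for Abi3, which encodes a regulator of the actin cytoskeleton, and 0.0525 for Parp14, an ADP-ribosyltransferase gene. For Fam171a1 it was 0.0513, for Fam102a 0.0557 and for the myosin chaperone gene Unc45b 0.0578, with log2 fold changes of -0.54, -0.45 and -0.53. Abi3 had 13.3 ± 1.26 CPM in tdT+GFP+ cells, against 18.7 ± 2.05 CPM in tdT-GFP+ cells, and Parp14 had 59.5 ± 4.57 CPM in tdT+GFP+ cells, against 84.1 ± 11.8 CPM in tdT-GFP+ cells. The 10 genes' own distances ran from 0.0301 for Tap1 to 0.209 for H2-Q4, and 926 other genes lay nearer to the mean than H2-Q4 did, and 867 nearer than Nlrc5 (0.206). Abi3 lay nearer than any of the 10 except Tap1, although the 10 make up the mean. Among the listed genes, the pericyte marker Notch3 ranked 28, H2-T23 ranked 68 and H2-T22 ranked 195. The remaining pericyte and smooth muscle markers ranked far lower, from 1632 (Abcc9) to 11338 (Myh11). H2-Q7 and H2-Q6, the heavy chain genes with the widest gaps, ranked 10887 and 12317. These distances are over 6 libraries that share their scaling and are a description.

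Within the stretch of chromosome 17 that holds 8 of the 10 genes, the other coding genes had a median nearer to 0. There, 61 tested coding genes are outside the class I and class II families and the loading list. Of these, 42 had negative and 19 positive log2 fold changes, with a median of -0.08 (quartiles -0.31 and 0.02). Of all genes tested, 50.1% were negative, with quartiles of -0.19 and 0.13, so more of the 61 leaned lower. An unadjusted p under 0.05 in edgeR went with a lower value in 2 of the 61 (6.97% of all genes tested). It went with a higher value in 2 (3.71% of all genes). In 8 of the 61 all tdT+GFP+ libraries lay below, beside 8.6% of all genes.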

How the data were processed

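Poly(A) RNA of sorted cells was sequenced from strand-specific libraries, per the labels' protocols. The authors deposited expected counts of RSEM (per the file headers), estimated for each gene and all whole numbers. Tools named in the submitters' processing notes are STAR 2.6.1 and RSEM 1.2.28, besides bcl2fastq 2.20, R 3.6.3 and DESeq2 1.26.0. The notes give both mm10 and GRCh38 as builds, with no role. Neither the annotation release nor the use of strand in counting is given in the sources. The 92 spike-in rows, all at 0, were left out. Of 31815 gene identifiers, 31748 were found in GENCODE M21 without their version, as were all 10 class I genes (9 with the same version, H2-D1 with another).

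After filterByExpr and TMM scaling, edgeR 4.0.16 in R 4.3.3 (robust glmQLFit, then glmQLFTest) tested the group alone over 15462 genes, with Benjamini-Hochberg adjustment at 0.05. The procedure was tested on simulated data. CPM use TMM-scaled library sizes, and centred log2 CPM a prior count of 2. Levels between genes are per kilobase of merged exons. Alternatives were DESeq2 size factors, upper-quartile factors, no filter, at least 1 CPM in 3 libraries, limma-voom (limma 3.58.1), DESeq2 1.42.0, the kidney as a replicate block, and leaving out each library or kidney.

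The class I genes and the other lists were chosen with earlier results of these data known. Genes named beside the 10 are Acta2, Axin2, up to 4 per list with the smallest p (a result among them is left out here), and the 5 genes most like the mean of the 10 with at least 1 CPM. Cd1d1, Mr1, H2-Q1, H2-Q2, H2-Q10, H2-M2, Cd3d, Ms4a1 and Abcc9 were named outside that rule to account for their lists. Psmb5, Psmb6, Psmb7 and Psmb10 were named outside it as partners in a ratio. The motif GAANNGAAA was added after the promoters had been seen, the other motifs were not. The labels give the same kidney to libraries of the same number, which pairs them. Across genes, the deviations of such a pair from the means of their groups had correlations of 0.04 (kidney 1), -0.58 (kidney 2) and -0.30 (kidney 3). Replicate 2 of tdT+GFP+ with replicate 3 of tdT-GFP+ cells gave 0.448, and replicate 3 of tdT+GFP+ with replicate 2 of tdT-GFP+ cells gave 0.444. Within-kidney differences rest on the kidney numbers in the labels, which these values do not settle. The sources do not say whether the kidneys came from separate animals. The labels call them biological replicates, and the p-values measure the spread between these libraries. The floor of 3 counts covers counting error only.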

Additional observations from a re-analysis of the deposited data

How the results depend on the processing

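The direction of the 10 class I genes did not depend on the processing, while the calls depended on the test. Under 17 alternatives all 170 log2 fold changes were negative, and 6 of them were called, H2-K1, H2-Q4 and Tap1 in DESeq2 with and without the kidney as a block. DESeq2 called 19 genes higher and 285 lower in tdT+GFP+ cells where edgeR and limma-voom called 0 (in edgeR, unadjusted p under 0.05 for 573 higher and 1077 lower). With the replicate block, the DESeq2 calls were 38 genes higher and 249 lower. The summed heavy chains had -0.55 in DESeq2 (adjusted p = 0.0218) and -0.54 in DESeq2 with the replicate block (adjusted p = 0.00733), both past the threshold, where edgeR with the replicate block gave -0.55 (adjusted p = 0.425). The edgeR replicate block called 0 genes and left the median of the 10 at -0.51. The cause of the difference between the tests was not tested.

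Leaving out 1 library or kidney at a time, the median of the 10 genes ran from -0.59 (without replicate 1 of tdT-GFP+ cells) to -0.41 (without replicate 3 of tdT-GFP+ cells), with -0.44 where replicate 1 of tdT+GFP+ cells was left out and -0.43 where kidney 3 was. The summed heavy chains ran from -0.64 to -0.43. Of the 10 genes, 7 had an unadjusted p under 0.05 in edgeR where kidney 1, replicate 1 of tdT+GFP+ cells or replicate 3 of tdT-GFP+ cells was left out, and 5 did where kidney 3 was left out. The split of reads among heavy chain genes, and between Tap1 and Psmb9 where they overlap, could not be checked from counts.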
